A study of Mus musculus with 6 samples.

Results

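The genes described here encode the protein subunits of the mitochondrial respiratory chain and of ATP synthase. They were chosen by their symbols, with earlier results of these data known: mouse symbols starting with Ndufa, Ndufb, Ndufc, Ndufs, Ndufv, Sdh, Uqcr, Cox4 to Cox8 or Atp5, together with Cyc1 and Cycs. The arrays held 132 probes of 99 such genes, of 20887 genes that a probe names through its RefSeq accession, and 96 of the 99 genes were tested. The symbol rule also takes in 12 assembly factors, Ndufaf1 to Ndufaf8 and Sdhaf1 to Sdhaf4, which help build complexes I and II and are not part of the finished enzymes.

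RNA came from tdTomato-positive, GFP-positive cells of the ureteric bud lineage, the precursor of the collecting duct, sorted from kidneys of C57BL/6 mice on postnatal day 1. All animals were under salt stress, and both groups carried Hoxb7cre, in which the Hoxb7 promoter drives Cre recombinase in the ureteric lineage, and the R26RtdTomato reporter. The WT group was Bdkrb2+/+ and the MUT group Bdkrb2f/f. Bdkrb2 encodes the bradykinin B2 receptor, and the study asked what its loss in these cells changes. Each group had 3 pools, numbered here 1 to 3. How many animals went into a pool is not stated, so p-values measure the spread between these pools. Cy5-labelled RNA of every pool was set against Cy3-labelled RNA of WT pool 1, with no dye swap. A value below is a log2 ratio to WT pool 1 RNA after loess normalization within the array, and a difference is the MUT mean minus the WT mean of these log2 ratios, ± SE, with 3 pools in each group.

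Respiration runs on 5 protein complexes of the inner mitochondrial membrane. Complex I (NADH dehydrogenase) and complex II (succinate dehydrogenase) pass electrons to ubiquinone, complex III (cytochrome bc1) passes them on to cytochrome c, and complex IV (cytochrome c oxidase) gives them to oxygen. Complexes I, III and IV pump protons, and complex V (ATP synthase) lets the protons back in to make ATP. In the kidney, tubule segments that reabsorb much salt are rich in mitochondria, and most subunits are encoded in the nucleus, where NRF1, the ETS factor GABPA, YY1, the estrogen-related receptors (ERR) and the coactivator PGC-1alpha are known regulators. The subunits encoded by mitochondrial DNA were not analysed here, since 0 of 13 had a named probe.

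RefSeq promoter windows of 300 bases, 250 before and 50 after the annotated start, could be matched to 81 of the 99 genes. They were searched on both strands for 4 exact motifs: the NRF1 core CGCATGCGC, the YY1 site AAGATGGC, the ETS core CCGGAAG and the ERR core AAGGTCA. Stretches of 100 bases of 6 genes are shown because their motif matches can be set beside the genes' values below. They run 5′ to 3′ in the direction of the gene, from GRCm38.p6, and capitals mark the match.
Cycs, chr6:50566570-50566669, minus strand, NRF1 core: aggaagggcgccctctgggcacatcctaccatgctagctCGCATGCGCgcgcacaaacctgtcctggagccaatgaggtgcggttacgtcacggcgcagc
Cox6a1, chr5:115349051-115349150, minus strand, NRF1 core: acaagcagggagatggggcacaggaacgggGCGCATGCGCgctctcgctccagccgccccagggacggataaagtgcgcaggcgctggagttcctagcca
Ndufa11, chr17:56717662-56717761, plus strand, NRF1 core: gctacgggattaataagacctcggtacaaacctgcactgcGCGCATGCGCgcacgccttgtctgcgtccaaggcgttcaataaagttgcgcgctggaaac
Atp5g2, chr15:102671048-102671147, minus strand, NRF1 core: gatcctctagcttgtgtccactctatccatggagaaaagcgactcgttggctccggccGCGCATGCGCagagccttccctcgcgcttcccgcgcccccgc
Sdhd, chr9:50603850-50603949, minus strand, ETS core on the opposite strand: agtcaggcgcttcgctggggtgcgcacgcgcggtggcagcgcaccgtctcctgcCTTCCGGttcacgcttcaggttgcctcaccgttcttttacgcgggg
Atp5g3, chr2:73911327-73911426, minus strand, ERR core on the opposite strand: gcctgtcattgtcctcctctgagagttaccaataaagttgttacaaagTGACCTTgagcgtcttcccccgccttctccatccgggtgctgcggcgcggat

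In Cox6a1, Ndufa11 and Atp5g2 the capitals cover 2 overlapping matches to the NRF1 core, 1 on each strand. The match starts at position -61 from the annotated start in Cycs, -162 in Cox6a1, -60 in Ndufa11 and -42 in Atp5g2. Outside the stretches shown, the window of Cox6a1 also held an ETS core and that of Sdhd an ERR core. The NRF1 core lay in the windows of 11 of the 81 genes (13.6%), against 1.95% of all 27025 genes with a window. The YY1 site lay in 11 (13.6%, against 3.19%), the ETS core in 22 (27.2%, against 9.93%) and the ERR core in 8 (9.88%, against 5.38%). At least 1 of the 4 motifs was present in 42 genes (51.9%, against 18.9%), and the median GC content of the windows was 58.7%, against 52.7% over all windows. A match describes these letters only and does not show that a factor binds there.

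The 6 arrays lay on 1 slide and were read in 1 scan session. Between 27022 and 31314 probes per array were well above background in Cy5, no spot was saturated, and 29003 probes of 14586 named genes and of unnamed transcripts were tested. The single Bdkrb2 probe did not rise well above background in any pool, so it is no check of the labels. Markers of several cell types moved with the groups. All 7 tested principal cell markers were called lower (median difference -1.90), with a summed normalized Cy5 level of 54800 to 57000 in WT pools and 12600 to 17000 in MUT pools. Scnn1g was above background on no array. All 10 intercalated cell markers were called lower (median -2.42, summed level 27500 to 43200 against 5610 to 6880). So were all 8 markers of thick limb and distal tubule (median -2.65, 85800 to 167000 against 18500 to 24500). Of 9 proximal tubule markers 3 were called lower (median -0.34, 46500 to 91100 against 44300 to 50900). Of 9 stroma markers 7 were called higher (median 2.06, 8550 to 27100 against 64800 to 70100), and of 7 nephron progenitor markers 6 (median 2.13, 23000 to 30100 against 70600 to 114000). Endothelial markers were called lower in 5 of 6 (median -0.75, 43300 to 52400 against 26000 to 26100). Of 6 leukocyte markers 5 were called higher and 1 lower (median 1.25, 4720 to 7390 against 9820 to 15300). The 4 tested erythroid markers, of which Slc4a1 also marks intercalated cells, were called lower (median -2.52, 136000 to 324000 against 51900 to 75700). Of 3 tested muscle markers 2 were called higher (median 0.65, 484 to 540 against 667 to 867), with Ckm and Mylpf above background on no array. The 2 called higher were tested only because they were well above background in all MUT pools. These marker lists moved alongside every result below, and their part in those results was not tested. In such sorted bulk pools, fewer cells of a type and less RNA per cell cannot be told apart.

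Messages for the respiratory chain and ATP synthase were lower in MUT pools than in WT pools in nearly every case, relative to the typical gene on the array; with scaling to spike-in controls, which moved the median of all genes to 0.96, their median turned to 0.14. Of the 96 tested genes 85 were called lower by limma (Benjamini-Hochberg adjusted p under 0.05 over all tested probes), none was called higher and 11 were not called. Over all tested genes 18.8% were called lower and 14.0% higher. At an unadjusted p under 0.05, limma had 2 of the 96 genes higher. The median difference over the 96 genes was -0.83, a 1.78-fold lower level, with quartiles at -1.02 and -0.63 and a range from -1.47 to 0.65. Over all tested genes the median was -0.02. In 27 genes the called fall was at least 2-fold, against 5.23% of all tested genes. All 3 MUT pools lay below all 3 WT pools in 88 of the 96 genes, against 28.3% of all tested genes.

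The median over the 96 genes was 0.05, -0.30 and 0.08 in the WT pools, in the order of their numbers, against -0.86, -0.93 and -0.87 in the MUT pools. WT pool 2 was the lowest WT pool and the MUT pools lay close together, so the groups did not overlap in this median. Without WT pool 2 the median difference was -0.97 and 84 genes were called lower. Most members fell by a similar, moderate amount. Of the tested genes, 7.69% had a lower difference than the members' median, 67 of the 96 lay among the 1458 lowest genes, and 0 lay among the 100 lowest.

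**Figure D1:**
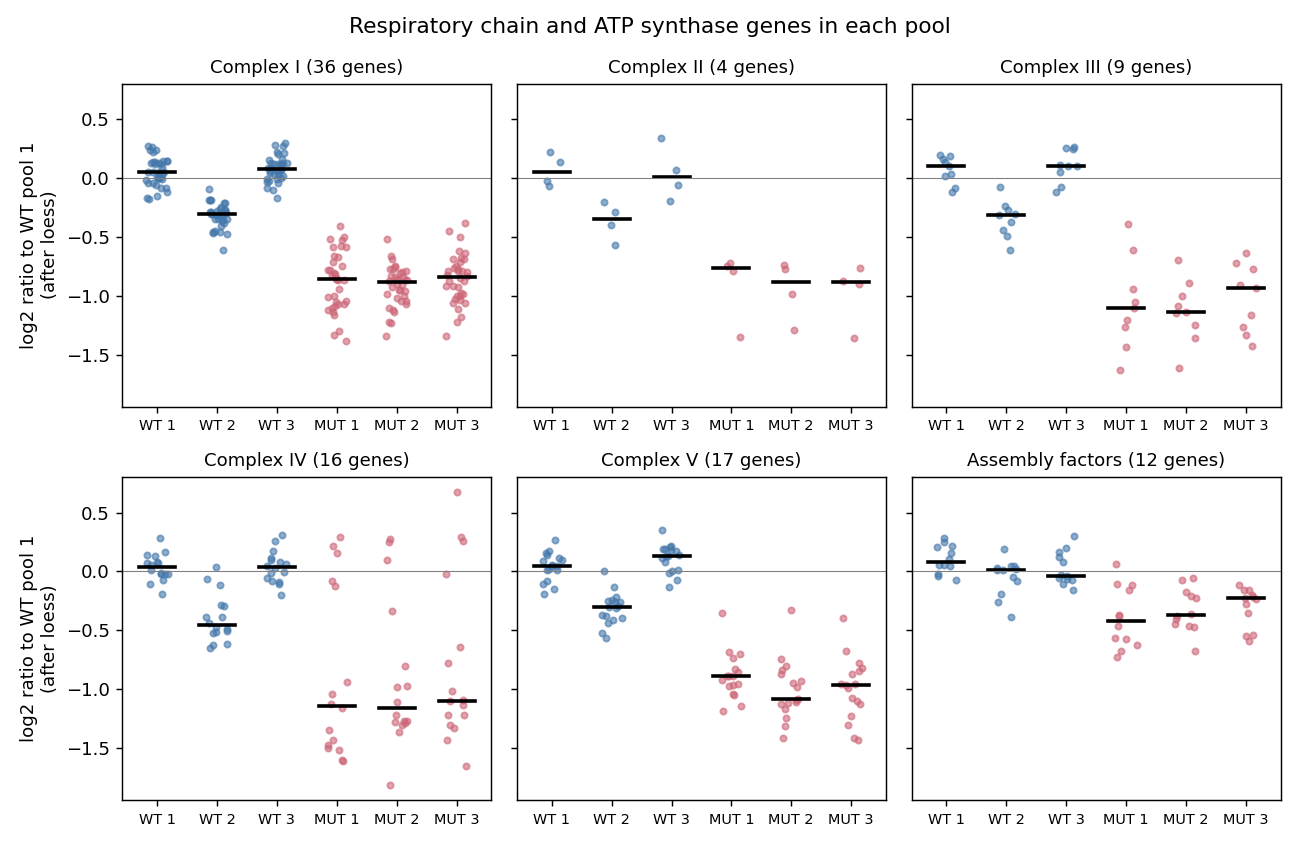
Log2 ratio to WT pool 1 after loess (vertical axis) of each tested gene in the 6 pools, by complex; points are genes and bars are medians, and Cycs and Cox7a2l are not drawn. In complex I the median is 0.05, -0.30 and 0.08 in WT pools and -0.86, -0.88 and -0.84 in MUT pools, and in complex IV a few genes of the MUT pools stay near or above 0. With scaling to spike-in controls the median difference of the 96 genes is 0.14, and that of all genes 0.96.

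The direction holds relative to other genes, not for the amount of message as such. Of the scalings tried, that to 10 spike-in control probes moved the medians most. Without loess it gave a median difference of 0.86 over all tested genes and of 0.17 over the members. After loess and without it, no member was called lower, 5 and 3 were called higher, and 54 and 60 of the 85 genes called lower turned in sign without being called. Over all 14586 tested genes, 9043 and 7842 were called higher and 158 and 208 lower. The spike-in controls themselves varied between pools, with medians after loess of -0.09, 0.28 and 0.93 in WT pools and -0.77, -0.76 and -0.28 in MUT pools. Before loess these were 1.58, 1.33 and 1.71 against 0.80, 0.95 and 1.498, where the groups overlapped. Set against the median of all genes, 93 of the 96 genes lay below it in every setting tried with the filter on dim probes, the spike-in scalings included, and 96 of 99 did so without that filter. The median of the members minus that of all genes ranged from -0.95 to -0.67. In what follows, lower and higher are meant relative to the typical gene, as loess sets it.

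**Figure D2:**
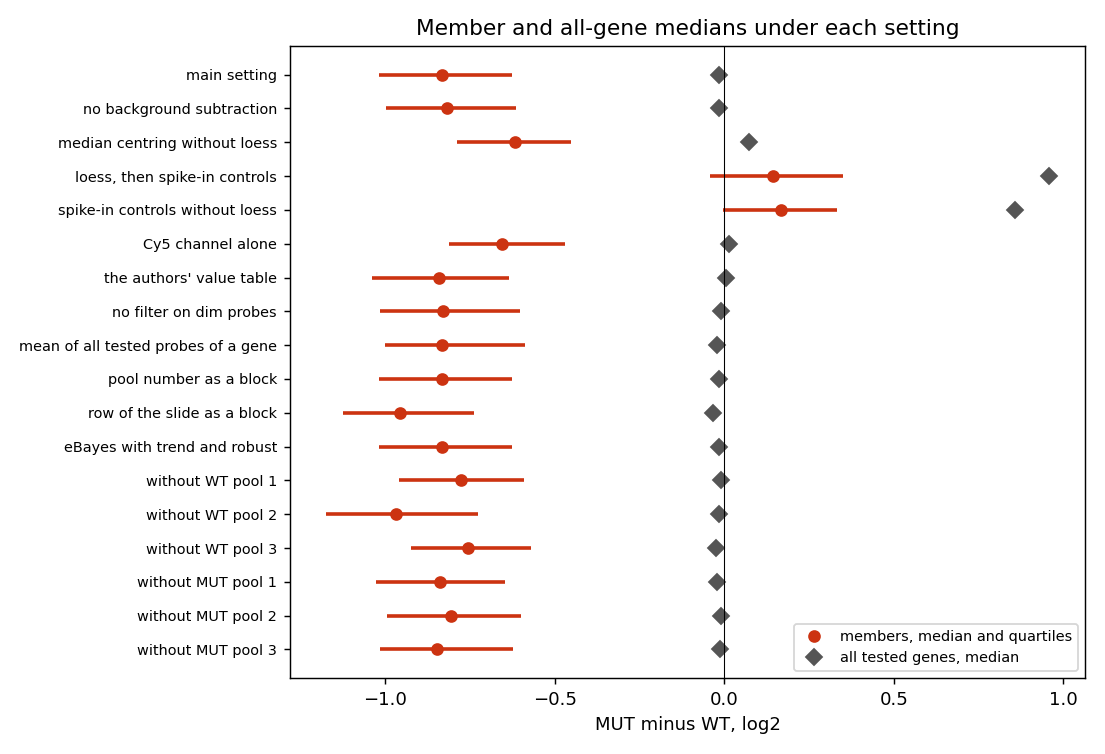
Median MUT minus WT difference, log2, of the tested respiratory chain and ATP synthase genes (red circles, bars span the quartiles) and of all tested genes (grey diamonds) under the main processing and each alternative. The red median lies left of the grey one in every row, and it moves above 0, to 0.14 and 0.17 with the spike-in scalings, where the grey one lies at 0.96 and 0.86.

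Most of these probes were bright: the median member was brighter than 97.3% of tested genes. Other tested genes within the members' middle range of brightness, 12.5 to 14.8 in log2 intensity, numbered 1114. Of these 29.8% were called lower and their median difference was -0.16, against -0.83 in the members. The slide held WT pool 1 and all MUT pools in its row 1, and WT pools 2 and 3 in its row 2. With the row as a block, a difference is therefore the MUT mean minus WT pool 1 alone. This is the pool whose RNA was also the Cy3 reference, so differences and calls of that fit rest on a single WT array. With the row as a block 55 members were called lower and the median was -0.96, while 1086 of all genes were called lower. The calls lost in that fit were 15 of 36 in complex I, 1 of 4 in complex II, 2 of 9 in complex III, 2 of 11 in complex IV, 4 of 17 in complex V and 6 of 7 among assembly factors. Of the genes described in every pool below these were Ndufv1 (adjusted p = 0.204), Ndufa7 (0.139), Sdhc (0.0570), Uqcrc1 (0.177), Cox6b1 (0.0646), Atp5g2 (0.171) and Ndufaf4 (0.129). Left out in turn, each pool left 67 to 87 members called lower, the 67 without WT pool 3 and the 87 without MUT pool 1. Over all 14586 tested genes, 1632 were called lower without WT pool 3 and 3310 without MUT pool 1, against 2737 in the main fit. Of the 85 genes, 67 were called lower without any 1 of the 6 pools.

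**Figure D3:**
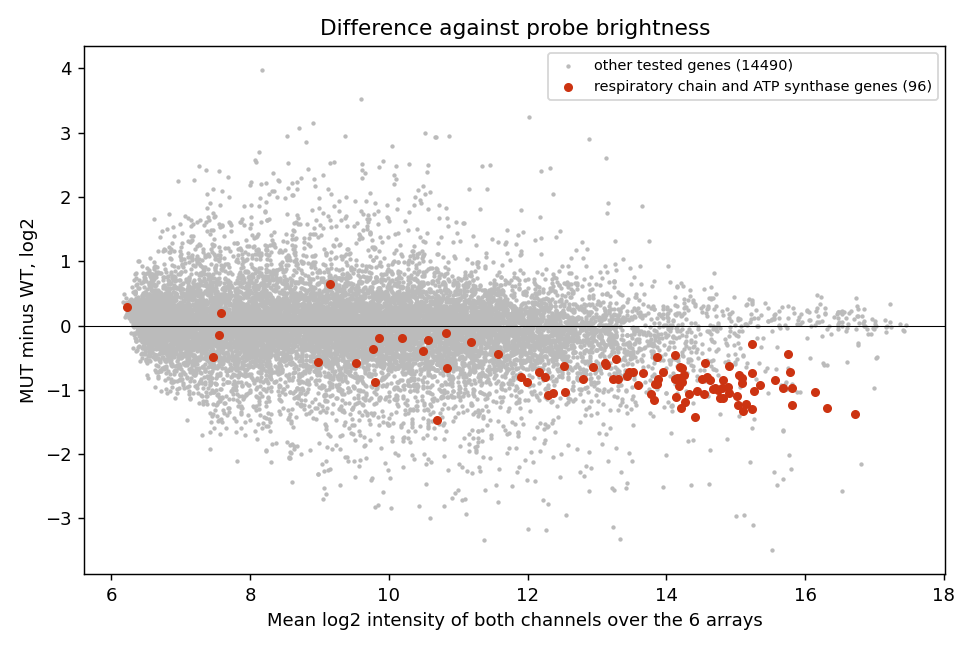
MUT minus WT difference, log2 (vertical axis), against mean log2 intensity of both channels over the 6 arrays (horizontal axis), with 1 point per tested gene. Respiratory chain and ATP synthase genes (red) form a band near their median of -0.83 at the bright end, below the bulk of other genes (grey). Spike-in scaling moves their median to 0.14 and that of all genes to 0.96.

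Different probes of a gene mostly moved alike. Of 24 member genes with several tested probes, 21 had all of them called lower, and the range of the difference over the probes of a gene had a median of 0.11. The largest range, 0.76, was in Ndufb11, whose bright probe gave -0.76 and whose dim probe gave 0.00. In Ndufb5 the second probe gave -0.38 (limma adjusted p = 0.0774), and in Cox7a2l none of 3 probes was called. The RefSeq table lists pseudogenes for 10 of the member genes. Whether their transcripts add to these probes was not tested.

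**Figure D4:**
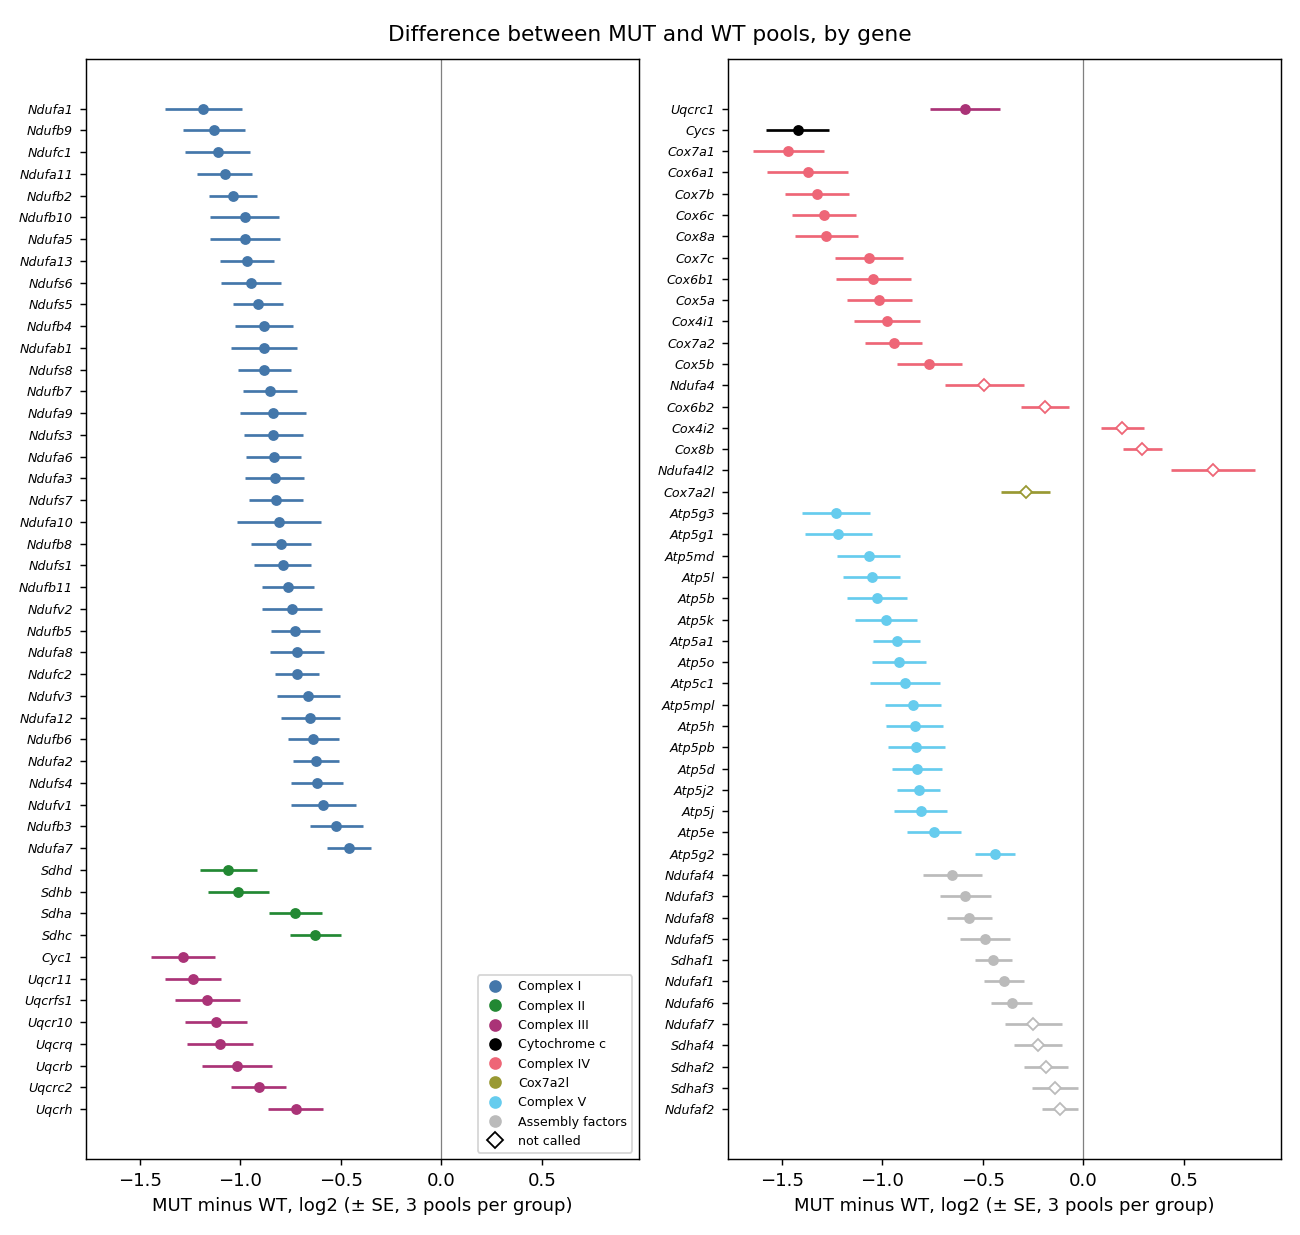
MUT minus WT difference, log2, with its SE (3 pools per group) for the tested genes, by complex, with 1 complex I gene not drawn; open diamonds are genes not called. Filled points all lie left of 0, between -1.47 and -0.36, and the 3 genes right of 0 are the complex IV genes Cox4i2, Cox8b and Ndufa4l2. Under spike-in scaling 54 of the 85 called genes change sign, and the median of the 96 is 0.14.

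Complex I takes electrons from NADH and was covered by 36 genes, 7 for the core and 29 for accessory subunits. All 36 were called lower, with a median difference of -0.83 and a range from -1.19 to -0.46 (median 0.15 with scaling to spike-in controls after loess). Core and accessory subunits hardly differed in their medians, at -0.80 and -0.83. In 5 genes the fall was at least 2-fold: Ndufa1, Ndufb9, Ndufc1, Ndufa11 and Ndufb2.

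Ndufa1, a small accessory subunit of the membrane arm, had the largest fall in complex I. It stood at 0.27, -0.46 and 0.13 in WT pools and at -1.33, -1.07 and -1.22 in MUT pools. The difference was -1.19 ± 0.19 (limma adjusted p = 0.00381), and every MUT pool lay below every WT pool. Ndufa11, an accessory subunit of the membrane arm whose promoter stretch with the NRF1 core is printed above, stood at 0.05, -0.29 and -0.04 against -1.38, -1.10 and -1.02. Its difference was -1.08 ± 0.14 (limma adjusted p = 0.00149).

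Ndufs1, the largest core subunit, carries iron-sulfur clusters of the arm that takes up NADH. It stood at 0.05, -0.37 and 0.05 in WT pools and at -0.78, -1.001 and -0.85 in MUT pools, with a difference of -0.79 ± 0.14 (limma adjusted p = 0.0056). Ndufv1, the flavoprotein that binds NADH, gave a smaller and less even fall. It stood at -0.12, -0.31 and 0.04 against -0.41, -0.91 and -0.84, so that MUT pool 1 lay only just below WT pool 2. The difference was -0.59 ± 0.16 (limma adjusted p = 0.0311), and the call was lost without WT pool 1 (adjusted p = 0.0915), WT pool 3 (0.128), MUT pool 2 (0.0954) or MUT pool 3 (0.0857).

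Of the core subunits of the arm that leads electrons to ubiquinone some lay close together, with differences of -0.84 for Ndufs3, -0.82 for Ndufs7 and -0.88 for Ndufs8. Ndufab1, the mitochondrial acyl carrier protein, which also serves fatty acid synthesis, had a difference of -0.88 ± 0.17 (limma adjusted p = 0.00695). The smallest fall in complex I was that of Ndufa7, at -0.46 ± 0.11 (limma adjusted p = 0.0188). It stood at -0.17, -0.36 and -0.10 against -0.58, -0.75 and -0.68, and its call was lost without WT pool 1 (adjusted p = 0.0704), WT pool 3 (0.0889), MUT pool 2 (0.0641) or MUT pool 3 (0.0514).

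Complex II oxidises succinate and is also an enzyme of the citric acid cycle. All 4 of its subunits were called lower, with a median difference of -0.87 (0.11 with scaling to spike-in controls after loess). Sdha, the flavoprotein with the succinate site, stood at 0.14, -0.29 and 0.07 in WT pools and at -0.72, -0.78 and -0.76 in MUT pools, a difference of -0.73 ± 0.13 (limma adjusted p = 0.00585). Sdhb, the iron-sulfur subunit, stood at 0.22, -0.20 and 0.34 against -0.79, -0.98 and -0.90, a difference of -1.01 ± 0.15 (limma adjusted p = 0.00283). In both genes the MUT pools lay close together, and the groups did not overlap.

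The other two subunits of complex II anchor it in the membrane. Sdhc stood at -0.03, -0.40 and -0.06 against -0.74, -0.74 and -0.87, a difference of -0.63 ± 0.13 (limma adjusted p = 0.00959). Without WT pool 3 its adjusted p was 0.0523. Sdhd, whose stretch with an ETS core is printed above, stood at -0.06, -0.57 and -0.19 against -1.35, -1.29 and -1.36. Its difference of -1.06 ± 0.14 (limma adjusted p = 0.00172) was the largest of the 4, and again all MUT pools lay below all WT pools.

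Complex III passes electrons from ubiquinol to cytochrome c. All 9 nuclear genes on the array were called lower, 6 of them at least 2-fold, with a median difference of -1.10 and a range from -1.28 to -0.59. Its median stayed below 0 with scaling to spike-in controls, at -0.13 after loess and -0.07 without, though no gene was called lower. Pool medians were 0.10, -0.31 and 0.11 in WT and -1.11, -1.14 and -0.94 in MUT.

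Cyc1, the cytochrome c1 haem subunit, led the complex. It stood at -0.08, -0.61 and -0.12 in WT pools and at -1.63, -1.61 and -1.43 in MUT pools, a difference of -1.28 ± 0.16 (limma adjusted p = 0.00125). Uqcrfs1, the Rieske iron-sulfur protein, stood at 0.10, -0.31 and 0.10 against -1.43, -0.998 and -1.16, a difference of -1.16 ± 0.16 (limma adjusted p = 0.00195). Neither gene showed an overlap between the groups.

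Among the small subunits, Uqcr11 had a difference of -1.24, Uqcr10 of -1.12, Uqcrq of -1.10 and Uqcrb of -1.02. The hinge protein Uqcrh lay at -0.72. Of the core proteins, which face the matrix, Uqcrc2 had a difference of -0.91 ± 0.14 and Uqcrc1 of -0.59 ± 0.17 (limma adjusted p = 0.00276 and 0.0408). Uqcrc1 stood at -0.12, -0.44 and -0.08 against -0.61, -1.15 and -0.64, with MUT pool 2 well below the other MUT pools. Its call was lost without WT pool 1 (adjusted p = 0.126), WT pool 3 (0.152), MUT pool 2 (0.0927) or MUT pool 3 (0.0519).

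Cycs, the somatic cytochrome c, carries electrons from complex III to complex IV and, once released to the cytosol, starts the apoptotic caspase cascade. It stood at -0.21, -0.69 and -0.12 in WT pools and at -1.71, -1.79 and -1.79 in MUT pools. The difference of -1.42 ± 0.16, a 2.68-fold lower level (limma adjusted p = 0.000832), was the second largest of all members, and the MUT pools lay close together.

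Complex IV reduces oxygen to water and has several subunits that exist as tissue isoforms. Of its 19 genes on the array, among them Ndufa4 and its paralogue Ndufa4l2 (now counted with this complex), 16 were tested. Cox6a2, Cox7b2 and Cox8c, isoforms of muscle and testis, did not rise well above background in any pool. Of the 16 genes 11 were called lower, 8 of them at least 2-fold, none was called higher by limma (2 at an unadjusted p under 0.05) and 5 were not called. The median difference was -0.997, with a range from -1.47 to 0.65 (median -0.02 with scaling to spike-in controls after loess, and 0.05 without loess).

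The 11 genes called lower were mostly widely expressed subunits, though the widely expressed Ndufa4, described below, was not called. Cox4i1, the regulatory subunit, stood at -0.02, -0.52 and 0.03 against -1.04, -1.31 and -1.11, a difference of -0.98 ± 0.16 (limma adjusted p = 0.00435). Cox5a stood at -0.01, -0.51 and -0.06 against -1.35, -1.27 and -1.01, a difference of -1.02 ± 0.16 (limma adjusted p = 0.00359). The MUT pools lay below the WT pools in both. Cox7b, Cox6c and Cox7c, small subunits without an isoform tested here, had differences of -1.33, -1.29 and -1.07, and Cox5b, which binds zinc, of -0.77.

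Several isoforms with a restricted expression were not called, and their probes were dimmer than those of their partners. In mean log2 intensity Cox4i2 lay at 7.59, Cox6b2 at 10.19, Cox8b at 6.23 and Ndufa4l2 at 9.15. Their partners Cox4i1, Cox6b1, Cox8a and Ndufa4 lay at 15.81, 12.37, 16.32 and 13.87. Cox7a1, which was called lower, was also dimmer than Cox7a2, at 10.69 against 14.18. The part of brightness in the gaps between isoforms was not tested. Cox4i2, an isoform known from lung and from hypoxia, stood at 0.08, 0.04 and -0.11 in WT pools and at 0.21, 0.09 and 0.29 in MUT pools. The difference was 0.19 ± 0.11 (limma adjusted p = 0.214), although every MUT pool lay above every WT pool, if only just. Cox4i1 minus Cox4i2 within a pool was -0.18 ± 0.35 (SD, n = 3) in WT and -1.35 ± 0.09 (SD, n = 3) in MUT. This change of -1.17 had an exact permutation p of 0.1 (two-sided), the smallest that 3 pools against 3 can give.

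The same within-pool contrast was made for 8 isoform pairs in all. In 7 of them the exact two-sided permutation p was 0.1, and 0.114 after adjustment over the 8 pairs, so none could pass 0.05 in this design. No size is given for Cox8a and Cox8b, 1 of these 7 pairs, because Cox8b was not above background in WT pools. Since both isoforms of a pair are measured in the same pool, this contrast cancels a shift that is common to all genes of a pool.

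Cox6b1 stood at -0.19, -0.62 and -0.01 against -1.60, -1.22 and -1.14 (difference -1.05 ± 0.19, limma adjusted p = 0.00566). Its testis isoform Cox6b2 stood at 0.07, -0.07 and 0.11 against -0.09, -0.34 and -0.02 (difference -0.19 ± 0.12, limma adjusted p = 0.281), with overlapping groups. Cox6b1 minus Cox6b2 changed by -0.86 between WT and MUT pools. Cox8a, the ubiquitous form of the smallest subunit, stood at 0.17, -0.28 and 0.31 against -1.16, -1.27 and -1.22 (difference -1.28 ± 0.16, limma adjusted p = 0.00122).

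Cox8b, its isoform of heart and skeletal muscle, stood at 0.01, -0.12 and -0.09 against 0.16, 0.27 and 0.26. Its probe was well above background on all 3 MUT arrays and on none of the WT arrays, so it was tested only through the MUT pools. A bound taken from the same background marks puts its level in MUT at 1.12-fold that in WT or more. It is no independent support for a rise. That bound compares normalized Cy5 signals, open to dye bias in the absence of dye swaps, of the MUT pools and of the dimmest level that counts as above background in WT. The fitted difference was 0.30 ± 0.10 (limma adjusted p = 0.0579). It depended on the handling of background, at 0.48 without background subtraction (adjusted p = 0.0216) and 1.91 in the authors' deposited table of log ratios (adjusted p = 0.0293). Without MUT pool 1 the adjusted p was 0.0315, without each other pool it was 0.0966 to 0.179, and with slide row blocked 0.425. Of the 3 tested muscle markers listed above, the 2 called higher, Tnnt3 and Actn3, were likewise tested only through the MUT pools. The filter thus favoured their direction. Tnnc2, well above background in all pools, was not called, at 0.03 (limma adjusted p = 0.886).

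Cox6a1, the liver-type form found in most tissues, stood at 0.29, -0.44 and 0.25 against -1.52, -1.28 and -1.22. Its difference of -1.37 ± 0.20 (limma adjusted p = 0.00261) could not be set against Cox6a2, which was not above background. The NRF1 core of its promoter stretch is shown above.

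For subunit 7a the order was the opposite, and the tissue isoform had the larger fall. Cox7a1, the form known from heart, skeletal muscle and brown fat, had the largest fall of all members, and its MUT pools lay far below its lowest WT pool. It stood at -0.10, -0.62 and 0.05 in WT pools and at -1.61, -1.82 and -1.66 in MUT pools, a 2.77-fold lower level (difference -1.47 ± 0.18, limma adjusted p = 0.00113). The widely expressed Cox7a2 stood at -0.03, -0.39 and 0.09 against -0.94, -1.11 and -1.09 (difference -0.94 ± 0.14, limma adjusted p = 0.00284). Cox7a2 minus Cox7a1 rose from 0.12 ± 0.10 (SD, n = 3) to 0.64 ± 0.07 (SD, n = 3), a change of 0.53.

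Ndufa4 was first assigned to complex I by its name and is now known as a subunit of complex IV. It stood at 0.14, -0.30 and 0.07 against -0.12, -0.80 and -0.64, with MUT pool 1 inside the WT range (difference -0.49 ± 0.20, limma adjusted p = 0.104). Without MUT pool 1 the difference was -0.69 with an adjusted p of 0.00488. Ndufa4l2, a paralogue known to be induced by hypoxia, gave the highest difference of all members. It stood at 0.13, -0.65 and -0.20 against 0.30, 0.25 and 0.68, so that all MUT pools lay above all WT pools.

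The difference of Ndufa4l2 was 0.65 ± 0.21 (limma adjusted p = 0.0552). It was 0.28 with slide row blocked (adjusted p = 0.561) and 0.44 without WT pool 2 (adjusted p = 0.135). It passed the threshold without WT pool 1 (0.83, adjusted p = 0.0330) or MUT pool 1 (0.70, adjusted p = 0.0293). Ndufa4 minus Ndufa4l2 changed by -1.14. Cox7a2l, a relative of Cox7a2 that joins complexes III and IV into supercomplexes, was not called. It stood at -0.03, -0.11 and -0.03 against -0.11, -0.44 and -0.48 (difference -0.29 ± 0.12, limma adjusted p = 0.126), with MUT pool 1 just below the lowest WT pool. Without MUT pool 1 the difference was -0.40 with an adjusted p of 0.0123.

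**Figure D5:**
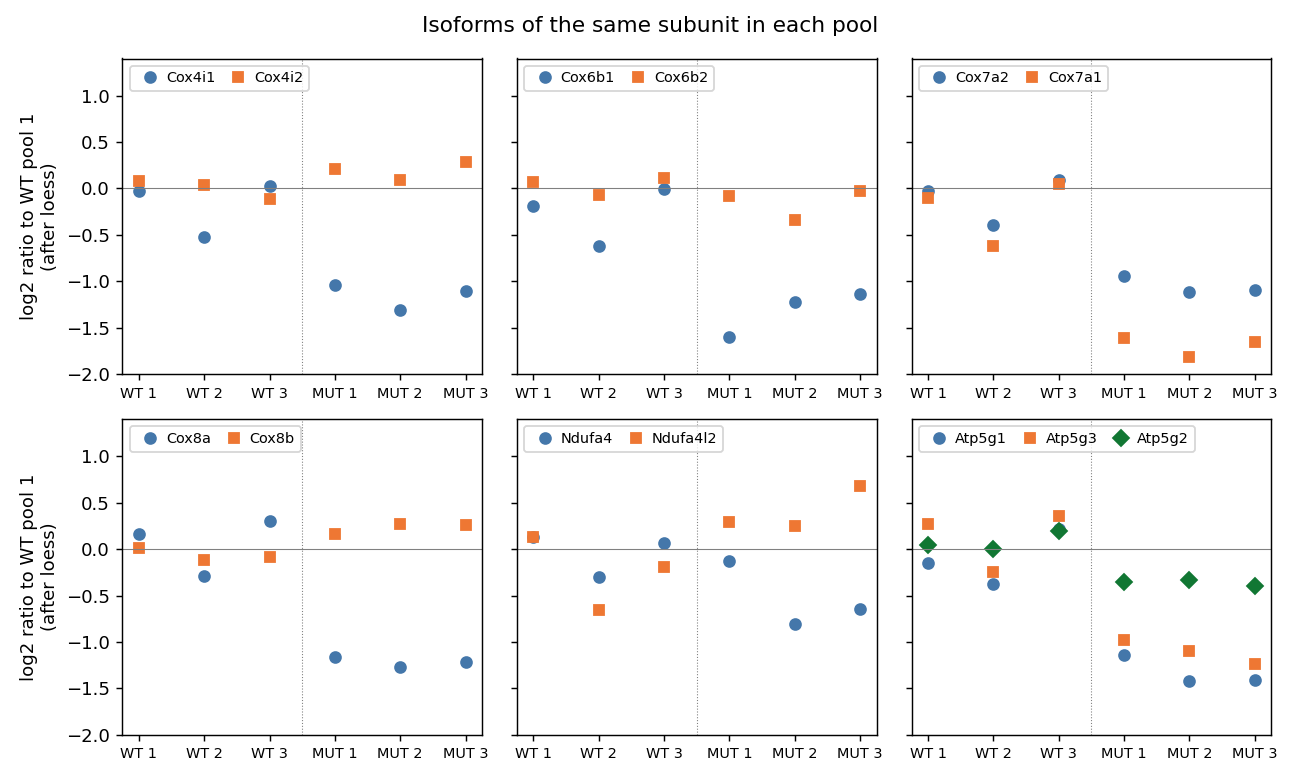
Log2 ratio to WT pool 1 after loess (vertical axis) in each of the 6 pools for isoforms of the same subunit; each panel is a subunit and each symbol an isoform. Cox4i1, Cox6b1 and Ndufa4 lie below their partners in MUT pools, Cox7a1 lies below Cox7a2 there, and Atp5g2 lies above Atp5g1 and Atp5g3 there; Cox8b was not above background in WT pools. Scaling to spike-in controls after loess moves all values of a pool together and leaves the gaps within it, while Atp5g2, Cox6b2, Cox7a2 and Ndufa4 differ the other way between groups.

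Complex V makes ATP with a rotating ring of c subunits in the membrane and a catalytic head, F1, in the matrix. All 17 of its genes were called lower, 5 of them at least 2-fold, with a median difference of -0.89 and a range from -1.23 to -0.44 (median 0.09 with scaling to spike-in controls after loess). Medians by role were -0.89 for the 5 genes of the head, -0.83 for the 4 of the stator stalk, -1.22 for the 3 of the c ring and -0.98 for 5 other membrane subunits. Pool medians were 0.05, -0.31 and 0.13 in WT and -0.89, -1.08 and -0.97 in MUT.

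Atp5a1 and Atp5b encode the alpha and beta subunits that alternate in the head, beta holding the catalytic sites. Atp5a1 stood at 0.05, -0.22 and 0.11 against -0.89, -0.99 and -0.96 (difference -0.93 ± 0.12, limma adjusted p = 0.00132). Atp5b stood at 0.09, -0.31 and 0.19 against -0.89, -1.13 and -1.07 (difference -1.03 ± 0.15, limma adjusted p = 0.00247). Both had lower values in every MUT pool than in any WT pool. The remaining head subunits Atp5c1, Atp5d and Atp5e had differences of -0.89, -0.83 and -0.74.

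In the stator, which keeps the head from turning with the ring, Atp5o had a difference of -0.92, Atp5h of -0.84, Atp5pb of -0.83 and Atp5j of -0.81. Atp5md, Atp5l and Atp5k, small membrane subunits, had differences of -1.07, -1.05 and -0.98, while Atp5mpl lay at -0.85 and Atp5j2 at -0.82. All of these were called lower.

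The c subunit is made from 3 genes that differ in their import signals and give the same mature protein, and these genes did not fall alike. Atp5g1 stood at -0.15, -0.38 and 0.22 against -1.14, -1.42 and -1.41 (difference -1.22 ± 0.17, limma adjusted p = 0.00185). Atp5g3, with the ERR core in the stretch printed above, stood at 0.27, -0.24 and 0.36 against -0.98, -1.09 and -1.23 (difference -1.23 ± 0.17, limma adjusted p = 0.00193). The groups were apart in both.

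Atp5g2 stood at 0.05, 0.00 and 0.19 against -0.35, -0.33 and -0.39, also with the groups apart. Its difference of -0.44 ± 0.10 (limma adjusted p = 0.0145, and 0.0730 without WT pool 3) was the smallest fall in complex V. WT pool 2, low for most members, lay close to WT pool 1 on this probe. A second Atp5g2 probe, nearly as bright, stood at 0.18, -0.14 and 0.05 in WT pools, with a difference of -0.54. Within pools, Atp5g1 minus Atp5g2 changed by -0.78 and Atp5g3 minus Atp5g2 by -0.79, each with the exact permutation p of 0.1. Atp5g1 minus Atp5g3 changed by 0.01 (exact permutation p = 1), with means of -0.23 ± 0.17 (SD, n = 3) in WT and -0.22 ± 0.09 (SD, n = 3) in MUT.

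Values of members with and without a promoter motif overlapped widely. Among genes with the NRF1 core the median difference was -0.98 (range -1.42 to -0.44), and among genes without it -0.83. The NRF1 core stood in the windows of Cycs and Cox6a1, at -1.42 and -1.37, and in that of Atp5g2, at -0.44. The medians with and without a match were -0.82 and -0.84 for the YY1 site, -0.85 and -0.83 for the ETS core, and -1.01 and -0.82 for the ERR core, and no test was made of these splits. Of the genes in the extremes of the isoform pairs, Cox7a1 and Atp5g1 held none of the 4 motifs in their windows.

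The assembly factors that share the Ndufaf and Sdhaf names had differences closer to 0 than most subunits. Of 12 tested, 7 were called lower and none higher (limma, also none higher at an unadjusted p under 0.05), and the median difference was -0.37 against -0.87 in the 84 tested members that are not assembly factors. Their median with spike-in scaling after loess was 0.60. Pool medians were 0.08, 0.01 and -0.04 in WT and -0.42, -0.37 and -0.23 in MUT, so WT pool 2 was not lower than the other WT pools here. The difference between assembly factors and subunits was not tested, and the assembly factors were dimmer, at 7.5 to 11.6 in log2 intensity.

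Ndufaf4, a complex I assembly factor, had the largest fall among them. It stood at 0.21, 0.02 and 0.30 against -0.73, -0.47 and -0.24, with MUT pool 3 nearest to the WT pools (difference -0.65 ± 0.15, limma adjusted p = 0.0150). The call was lost without WT pool 1 (adjusted p = 0.0566) or WT pool 3 (0.0729). Sdhaf1, needed to put iron-sulfur clusters into Sdhb, had a difference of -0.45 ± 0.09 (limma adjusted p = 0.0106, and 0.0522 without WT pool 3). Ndufaf2, Ndufaf7, Sdhaf2, Sdhaf3 and Sdhaf4 were not called, at -0.12, -0.25, -0.19, -0.14 and -0.22.

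Other genes of the pathway were read from lists of companion genes, beside shares over all tested genes of 18.8% called lower and 14.0% called higher. Of 33 further assembly factors on the array 30 were tested, and 14 were called lower and none higher (limma, also none at an unadjusted p under 0.05), with a median difference of -0.33. The largest fall was that of Ecsit, a complex I assembly factor, at -0.71 ± 0.17 (limma adjusted p = 0.0202). Its call was lost without WT pool 1 (adjusted p = 0.0757) or WT pool 3 (0.0874). With slide row blocked all 14 calls were lost (adjusted p = 0.118 for Ecsit). Of 13 citric acid cycle genes 12 were called lower and none higher (limma, also none at an unadjusted p under 0.05), with a median of -0.71, and 5 of the 12 calls were lost with slide row blocked. Idh3a, the catalytic subunit of the NAD-dependent isocitrate dehydrogenase, fell most, at -1.22 ± 0.13 (limma adjusted p = 0.000793). Suclg2, a subunit of the GTP-forming succinyl-CoA ligase, was not called, at -0.03 ± 0.20 (limma adjusted p = 0.94). It stood at -0.15, -0.80 and -0.52 against -0.18, -0.71 and -0.66, so its groups overlapped.

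Of 13 genes for the upkeep and expression of mitochondrial DNA, 1 was called lower and 1 higher, below the shares over all tested genes of 18.8% and 14.0%. Their median difference was 0.04. Polrmt, the mitochondrial RNA polymerase, was lower by -0.40 ± 0.10 (limma adjusted p = 0.0252). Twnk, the mitochondrial DNA helicase, was higher by 0.51 ± 0.14 (limma adjusted p = 0.0343). Both calls depended on single pools. That of Polrmt was lost without any 1 of the 6 pools other than MUT pool 1, with adjusted p from 0.062 to 0.109. That of Twnk was lost without WT pool 1, 2 or 3 or MUT pool 2, with adjusted p from 0.0546 to 0.108. With slide row blocked both were lost (adjusted p = 0.243 and 0.347). Tfam, which packages mitochondrial DNA, was not called, at 0.30 ± 0.19 (limma adjusted p = 0.277).

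Of 11 regulators of respiratory genes 4 were called lower and none higher (limma, 2 higher at an unadjusted p under 0.05). Their median difference was -0.24. Over all tested genes 18.8% were called lower and 14.0% higher. Esrrb, an estrogen-related receptor, stood at 0.12, -0.45 and 0.25 against -2.21, -2.08 and -1.78, a difference of -1.998 ± 0.20 (limma adjusted p = 0.00058). The other 3 genes called lower were Ppargc1a, which encodes PGC-1alpha, at -1.90, and the estrogen-related receptors Esrrg at -1.38 and Esrra at -1.19. The call of Ppargc1a was lost with slide row blocked (adjusted p = 0.072). Genes not called included Ppargc1b, a relative of Ppargc1a, at -0.24, the fatty acid receptor Ppara at -1.15 (limma adjusted p = 0.0651), Nrf1 at 0.35, Gabpa at 0.41 and Yy1 at 0.08. After scaling to spike-in controls, 2 companion genes in all were called lower and 23 higher, against 31 and 1 with loess alone. Over all 14586 tested genes that scaling had 158 called lower and 9043 higher.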

How the data were processed

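RNA of 3 WT and 3 MUT pools was hybridised in Cy5 to Agilent mouse whole genome arrays (probe build mm9 in the file headers), each against WT pool 1 RNA in Cy3. Per the submitters' processing notes the scanner software was Agilent Feature Extraction 10.7.3.1. Its deposited files give the intensity of each spot (median signal) and of its local background. The deposited value table holds the scanner software's log10 ratio of Cy5 to Cy3, which was used as an alternative after conversion to log2.

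From these files background was corrected by normexp (offset 50) on the median signals, since the files give no mean signals, and ratios were normalized by loess within arrays giving no weight to controls. Controls and spots with a non-uniformity or population outlier mark were dropped, and spots of a probe were averaged. Probes whose Cy5 signal was well above background in all 3 pools of either group were tested with lmFit and eBayes (limma 3.58.1, R 4.3.3) without covariates, with p-values adjusted (Benjamini-Hochberg) across the 29003 tested probes. A call is an adjusted p under 0.05. The fit was tested on simulated data. Each gene took the values of its brightest tested probe and was named through RefSeq accessions (GRCm38.p6 table). Promoter sequences are those of RefSeq for the same build. Tables were read with data.table (version 1.17.8), and promoters and figures were made in Python 3.11.15 with pandas 2.3.3 and matplotlib 3.10.9.

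The members, companion lists, cell type markers, isoform pairs, motifs and alternatives were chosen with earlier results of these data known, so they are a description and not an independent test. Values are given in every pool for the largest called change in each complex, the isoform pairs, the Sdh genes, cytochrome c and c1, and the core and catalytic subunits listed. The largest called changes in the companion lists were also named by rule. Of these, Esrrb is given in every pool, and Ecsit, Idh3a, Polrmt and Twnk without pools. Ndufa11, Ndufa7, Cox7a2l and Suclg2, and other values given without pools, were added after their values were seen. Isoforms were compared by an exact permutation test over pools. No list was tested as a set. Values of 2 single genes are not reported here. Pool numbers were not used as a block in the main fit: correlations of same-numbered pools' deviations are given with the alternatives. Alternatives were no background subtraction, other scalings, the Cy5 channel alone (quantile normalized), no filter on dim probes, the mean of a gene's probes, blocks for pool number and slide row, eBayes with trend and robust settings, and leaving out each pool. The block for slide row sets the MUT pools against WT pool 1 alone. Summed marker levels come from the quantile-normalized Cy5 channel. The number of arrays limits the precision.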

Additional observations from a re-analysis of the deposited data

How the results depend on the processing

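Loess was kept with no background subtraction, no filter on dim probes, the mean of a gene's probes, and eBayes with trend and robust settings. In these settings 84 or 85 members were called lower. The authors' table, to which no loess was applied here, gave 80. Only Cox8b was called higher, without background subtraction, in the authors' table and with trend and robust settings. Median centring without loess gave 67 lower and 1 higher (Ndufa4l2), and medians of -0.62 over all members, -0.62, -0.64, -0.86, -0.74 and -0.65 in complexes I to V and -0.26 in the assembly factors. The Cy5 channel alone gave -0.66 over all members and -0.66, -0.60, -0.89, -0.78 and -0.68 in complexes I to V. Scaling to spike-in controls after loess gave 0 members lower and 5 higher, with medians of 0.14, 0.15, 0.11, -0.13, -0.021, 0.088 and 0.60 in the same order. Without loess it gave 0 lower and 3 higher, with medians of 0.17, 0.17, 0.14, -0.072, 0.047, 0.14 and 0.52. After loess, the shift follows from the construction of the scaling, which moves all genes of a pool by the same amount. The scaling without loess also leaves out the loess correction. There the median of the members minus that of all genes was -0.69, against -0.82 in the main setting. Over all tested genes, 9043 were called higher with this scaling after loess and 7842 without loess.

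Differences that turned in sign with spike-in controls after loess were Atp5a1 0.048, Atp5g2 0.54, Cox6b2 0.79, Cox7a2 0.033, Ndufa4 0.48, Ndufaf4 0.32, Ndufs1 0.19, Ndufv1 0.39, Sdha 0.25, Sdhc 0.35 and Uqcrc1 0.39. Without loess they were Atp5a1 0.14, Atp5b 0.075, Atp5g2 0.65, Cox4i1 0.11, Cox5a 0.030, Cox6b2 0.72, Cox7a2 0.065, Ndufa4 0.51, Ndufaf4 0.24, Ndufs1 0.18, Ndufv1 0.45, Sdha 0.26, Sdhb 0.028, Sdhc 0.31 and Uqcrc1 0.37. The change of Atp5g1 minus Atp5g3, near 0, was -0.031 with median centring, -0.031 with spike-in controls without loess and -0.13 in Cy5 alone, and the cause was not tested.

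With the slide row as a block 55 members and 10 companion genes were called lower and 0 of either higher. With loess alone 31 companion genes were called lower and 1 higher. These counts were 18 and 2 with median centring, 2 and 23 and 2 and 19 with spike-in controls, and 2 were higher in Cy5 alone and 0 in the authors' table. Deviations of same-numbered pools correlated at 0.143, 0.0723 and 0.197, and each pool correlated best with its own number, a hint from the data only. With the replicate block (pool number) 85 members were called lower and 1 higher, and 2 companion genes higher. Leaving out each pool in turn gave 67 to 87 members lower and 0 to 2 higher, 18 to 34 companion genes lower and 0 to 1 higher. Medians then ranged from -0.97 to -0.76 over all members, -0.95 to -0.73, -1.01 to -0.79, -1.27 to -0.99, -1.16 to -0.90 and -1.03 to -0.81 in complexes I to V and -0.41 to -0.34 in the assembly factors. Atp5g1 minus Atp5g3 ranged from -0.085 to 0.060. Dim isoforms near background carry the least signal, and the arrays give no count depth.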
